A study of Sus scrofa with 8 samples.

Results

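The miRNAs described here are miR-148a-3p and its seed relatives in the exosomes of pig milk. A member is a read, cut free of its 3′ adaptor (an insert), of 18 to 26 nt whose nt 1 to 8 are those of miR-148a-3p. miR-148a-3p itself is an insert with the first 18 nt identical to the miRNA, and every other member is a relative. The 8 libraries held 527 kinds (distinct sequences) of members among 1609954 kinds of inserts. Of these, 77 kinds were miR-148a-3p, 25 were of the miR-148b-3p type, 35 were of the miR-152-3p type and 390 were other relatives. A count is the number of identical reads of a kind.

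The milk came from 3 healthy sows (Sus scrofa), adult Yorkshire animals of like age at their second birth. Exosomes, the small vesicles that cells release, were enriched from the milk with a precipitation reagent, and their small RNA was sequenced in 8 libraries. 3 libraries (0d-1, 0d-2 and 0d-3) came from single sows on day 0. The other 5 libraries (3d, 7d, 14d, 21d and 28d, named by the days after birth) were each made from pooled RNA of the sows. The 4 libraries of the first 3 days are colostrum and the 4 from day 7 on are mature milk, so that stages stood in for replicates. The libraries of day 0 differ by sow and the pooled ones by stage, and the p-values measure the spread between libraries of both kinds at once.

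The inserts of 18 to 26 nt numbered 3236809 in 0d-1, 4391269 in 0d-2, 13896127 in 0d-3, 1648468 in 3d, 803940 in 7d, 2415382 in 14d, 1289109 in 21d and 3640947 in 28d. The library 0d-3 stood apart from the others. In it 0.105% of the inserts began with 1 of 4 leaders, against 42.5 to 73.6% in the other 7 libraries. Leaders are the 4 sequences of 5 nt that most often stood alone before the adaptor as a whole insert. Their origin is not given in the sources used here. The comparisons of milk classes are given with and without 0d-3. Reads were 36 nt long in 7d and 21d and 40 nt long in the others.

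miRNAs are short RNAs that guide a silencing complex to messenger RNAs. The bases 2 to 8 from the 5′ end, called the seed, choose most of the targets by pairing, and miRNAs with the same seed are counted as 1 family. miR-148a, miR-148b and miR-152 form such a family, known for the silencing of the DNA methyltransferase DNMT1 and, for miR-148a, of the transcription factor TGIF2. miR-148a-3p is known as an abundant miRNA of mammalian milk.

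The 3 named members are shown because the results turn on how they differ outside the seed, which stands in capitals, from 5′ to 3′ in the DNA letters of the reads. The first is the sequence given in the study's list of abundant miRNAs. The others are the most frequent inserts of their type in each of the 8 libraries, and their names rest on general knowledge of the family, since no catalogue of pig miRNAs was used.
miR-148a-3p: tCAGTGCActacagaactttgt
miR-148b-3p: tCAGTGCAtcacagaactttgt
miR-152-3p: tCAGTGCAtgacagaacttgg

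Counted from 1 at the 5′ end of miR-148a-3p, miR-148b-3p differed from it by C9T and T10C, and miR-152-3p by C9T, T10G and T20G. The most frequent insert of miR-152-3p was 21 nt long, against 22 nt for the others. In the RefSeq gene table of the pig assembly Sscrofa11.1, MIR148A overlapped no protein-coding gene and lay between NFE2L3 and NPVF. MIR148B lay within COPZ1 and MIR152 within COPZ2, both of which code for zeta subunits of the COPI vesicle coat. The positions in the genome are not given here, since the study used another assembly.

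miR-148a-3p was the most abundant of 15 miRNAs (the 3 members and the 12 other miRNAs of the study's list) in 7 of the 8 libraries. Its share of all inserts was 5.34% in 0d-1, 6.01% in 0d-2, 0.0227% in 0d-3 and 4.48% in 3d. In mature milk the share was 9.46% in 7d, 4.60% in 14d, 11.5% in 21d and 5.60% in 28d. The shares in 7d and 21d, the libraries of 36-nt reads, were above all others, and 0d-3 was below all others. Behind the share of 0d-3 stood 3148 counts, and its 95% Wilson interval was 0.0219 to 0.0235%, which covers counting error only. Reads carried no molecular identifiers, so that this holds for every interval given here.

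In 0d-3 miR-148a-3p was the 14th of the 15 miRNAs. The median share of the other 7 libraries was 247 times that of 0d-3. When only inserts without a leader were counted, the median was 764 times that of 0d-3, at 17.3% against 0.0227%. Set against the summed counts of the 12 other miRNAs, the ratio was 1743, at 179 against 0.102 counts of miR-148a-3p per 100 counts of the others. Each of the 12 other miRNAs had a higher share of all inserts in 0d-3 than in the median of the other libraries, by 1.17 times (miR-21-5p) to 19.8 times (miR-200c-3p). Leaders made up 42.5 to 73.6% of all inserts in the other libraries and 0.105% in 0d-3. The shares of these 12 miRNAs among inserts without a leader were not computed. The low level of miR-148a-3p in 0d-3 was thus present under each of the 3 ways of scaling, and the part that the leaders, the depth, the single animal or a different preparation of this library play in it was not tested.

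miR-148b-3p was not set apart in 0d-3 on the scale of all inserts. Its share of all inserts was 0.0460% in 0d-1, 0.0499% in 0d-2, 0.0471% in 0d-3 and 0.0320% in 3d. In 7d, 14d, 21d and 28d it was 0.0733, 0.0389, 0.0856 and 0.0472%. The value of 0d-3 lay inside the range of the other libraries and was almost equal to their median. Against the 12 other miRNAs, miR-148b-3p was 7.02 times lower in 0d-3 than in the median of the others, and 3.15 times lower among inserts without a leader, so that its standing in 0d-3 depends on the scale.

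miR-152-3p, the least abundant of the 15 miRNAs in all 8 libraries, had shares of all inserts of 0.0104, 0.0109, 0.0155 and 0.00655% in 0d-1, 0d-2, 0d-3 and 3d. In 7d, 14d, 21d and 28d the shares were 0.0153, 0.00861, 0.0171 and 0.0127%. The share in 0d-3 was 1.42 times the median of the other libraries and below that of 21d. Against the 12 other miRNAs it was 4.79 times lower in 0d-3. These shares rest on 108 to 2158 counts of miR-152-3p per library.

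**Figure D1:**
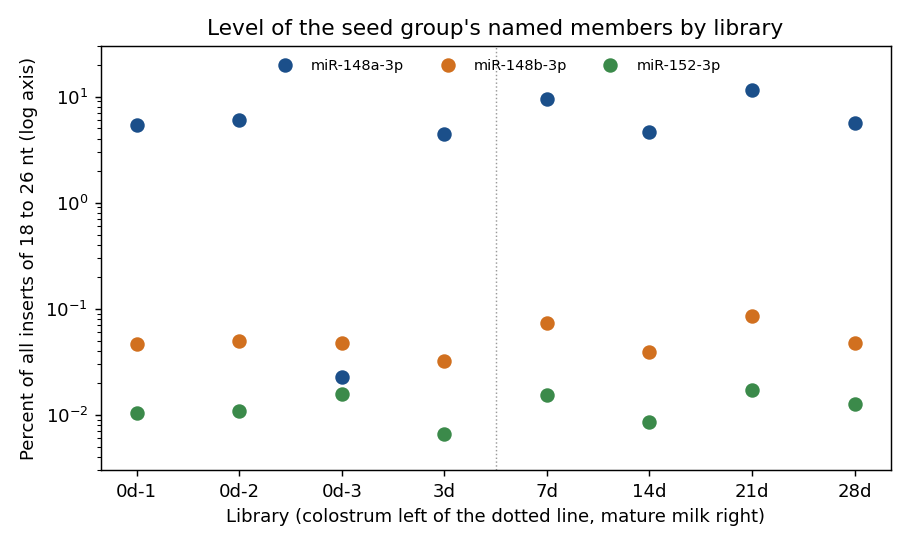
Share of all inserts of 18 to 26 nt (percent, log axis) of miR-148a-3p, miR-148b-3p and miR-152-3p in each of the 8 libraries, 1 point per library. miR-148a-3p lies above 4% in 7 libraries and at 0.0227% in 0d-3, where miR-148b-3p, at 0.0471%, lies above it.

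The order of the members was miR-148a-3p, miR-148b-3p, miR-152-3p in 7 libraries. In 0d-3 it was miR-148b-3p with 6552 counts, miR-148a-3p with 3148 and miR-152-3p with 2158. The 95% intervals of neighbours in this order did not overlap in any library. The ratio of the members to each other varied little outside 0d-3. For each 100 counts of miR-148a-3p there were 0.716 (3d) to 0.863 (0d-1) counts of miR-148b-3p, with a mean of 0.803 ± 0.057 (SD, n = 7), and 208 in 0d-3. For miR-152-3p there were 0.146 to 0.227 counts per 100 of miR-148a-3p, with a mean of 0.178 ± 0.029 (SD, n = 7), and 68.6 in 0d-3. Over the same 7 libraries the share of miR-148a-3p itself ranged from 4.48 to 11.5%.

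The ratio of the relatives to each other moved less with 0d-3 than their ratio to miR-148a-3p. Counts of miR-148b-3p per count of miR-152-3p were 4.41, 4.57, 3.04, 4.89, 4.79, 4.52, 5.01 and 3.72 in 0d-1, 0d-2, 0d-3, 3d, 7d, 14d, 21d and 28d. The library 0d-3 was lowest, and 28d lay closest to it. Outside 0d-3 the mean was 4.56 ± 0.429 (SD, n = 7).

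All relatives together made up 3.67% of the seed group's counts in 0d-1, 3.11% in 0d-2, 73.8% in 0d-3 and 1.59% in 3d. In mature milk they made up 2.28, 2.0, 1.42 and 1.73% in 7d, 14d, 21d and 28d. The groups overlapped, since 3d lay within the range of mature milk.

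**Figure D2:**
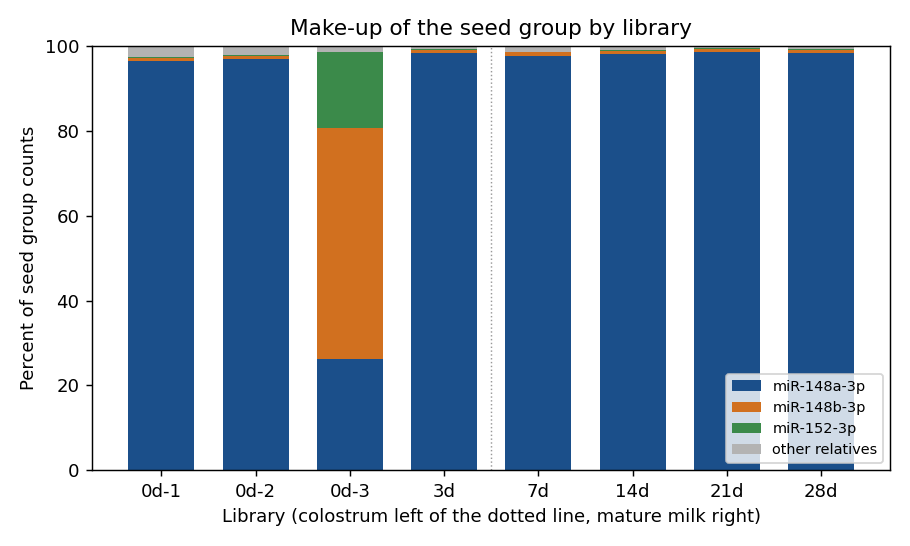
Make-up of the seed group in each library as stacked bars (percent of its counts, from 0 to 100). miR-148a-3p holds 96.3 to 98.6% in 7 libraries and 26.2% in 0d-3, where miR-148b-3p holds 54.5% and miR-152-3p 17.9%.

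Colostrum and mature milk, the division the study compares, were set against each other by a two-sided exact permutation test on group means, with 70 ways to assign the 8 libraries. The smallest p it allows is 0.0286, and p-values were adjusted by Benjamini-Hochberg over the 10 tests made. The share of miR-148a-3p among all inserts was 3.96% ± 2.70 (SD, n = 4) in colostrum and 7.78% ± 3.23 (n = 4) in mature milk (exact p = 0.171, adjusted p = 0.429). Without 0d-3 the colostrum value was 5.27% ± 0.767 (n = 3; exact p = 0.314). Within the libraries of 40-nt reads it was 3.96% against 5.10% ± 0.707 (n = 2; exact p = 0.733), and without 0d-3 as well 5.27% against 5.10% (exact p = 0.8), so that the direction turned. Libraries of 36-nt reads were of mature milk alone. Among inserts without a leader the share was 13.4% ± 8.98 in colostrum and 17.5% ± 3.55 in mature milk (exact p = 0.571). Without 0d-3 it was 17.9% ± 1.28 (n = 3) in colostrum, so that here too the direction turned (exact p = 0.886, a comparison added after the data were seen).

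The relatives took 20.5% ± 35.5 of the seed group in colostrum and 1.86% ± 0.369 in mature milk (exact p = 0.114, adjusted p = 0.429), a mean that 0d-3 carried. Without it the share was 2.79% ± 1.08 (n = 3) against 1.86% ± 0.369 (exact p = 0.2, adjusted p = 0.629). miR-148b-3p held 14.2% ± 26.8 of the group in colostrum and 0.787% ± 0.0483 in mature milk (exact p = 0.571), and without 0d-3 0.780% ± 0.0670. miR-152-3p held 4.61% ± 8.88 and 0.178% ± 0.0337 (exact p = 0.657), and without 0d-3 0.170% ± 0.0230. None of the 10 tests passed an adjusted p of 0.05, with or without 0d-3, but the design gives them little room, since a single test at the smallest p would have an adjusted p of 0.286.

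In edgeR's quasi-likelihood test over 15212 units (inserts that share their first 18 nt), none of the 29 tested units of the seed group was called between colostrum and mature milk. The background was the same, with 0% of all units called, 260 units at an unadjusted p under 0.05, and 46 units called by DESeq2, of which 0 were of the seed group. Colostrum over mature milk, on the log2 scale, was -0.54 (SE 1.87) for miR-148a-3p, 0.45 (SE 1.75) for miR-148b-3p and 0.77 (SE 1.69) for miR-152-3p, with an adjusted p of 0.975 for each. The median over all units was -0.33 on the same scale. Scaling by DESeq2's size factors moved that median to 0.27, and scaling by library size turned the sign of miR-148b-3p and miR-152-3p to -0.48 and -0.30. Without 0d-3 none of 15492 units was called (0%, with 3549 at an unadjusted p under 0.05). The log2 ratios were then 0.037 (SE 0.55), 0.038 (SE 0.56) and 0.0097 (SE 0.56), beside a median of 0.30 over all units.

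The miRNAs whose pattern was most like that of miR-148a-3p were found by Pearson's r of the log2 share of all inserts, as a description over libraries that share 1 total. Over the 8 libraries the highest values were 0.239 for miR-148b-3p, -0.184 for miR-21-5p and -0.215 for miR-152-3p. Without 0d-3 the last 2 turned positive, and that of miR-148b-3p stayed so. Over the 7 others they were 0.980 for miR-148b-3p, 0.947 for miR-27b-3p and 0.900 for miR-152-3p. Every other miRNA compared was then positive too, from 0.528 (miR-21-5p) to 0.896 (miR-574-3p), so that a high r was not particular to the relatives.

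The 3′ end of miR-148a-3p was almost always the same. Inserts of 22 nt made up 99.6% of its counts in 0d-1, 0d-2 and 3d, 7d, 21d and 28d, 99.5% in 14d and 98.7% in 0d-3. The lowest and highest of the 7 libraries other than 0d-3 were 99.52 and 99.62%. The interval of 0d-3, 98.2 to 99.0%, lay below them. The means were 99.3% ± 0.453 in colostrum and 99.6% ± 0.0413 in mature milk (exact p = 0.543), and without 0d-3 both were 99.6% (exact p = 0.971).

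No other of the 13 miRNAs of the study's list was as uniform. miR-148a-3p had the highest share at its most frequent length in 8 of 8 libraries. The next were miR-375-3p, miR-25-3p or miR-574-3p, by library, with at most 96.8%. miR-191-5p and miR-30c-5p were below 50% in all 8 libraries.

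**Figure D3:**
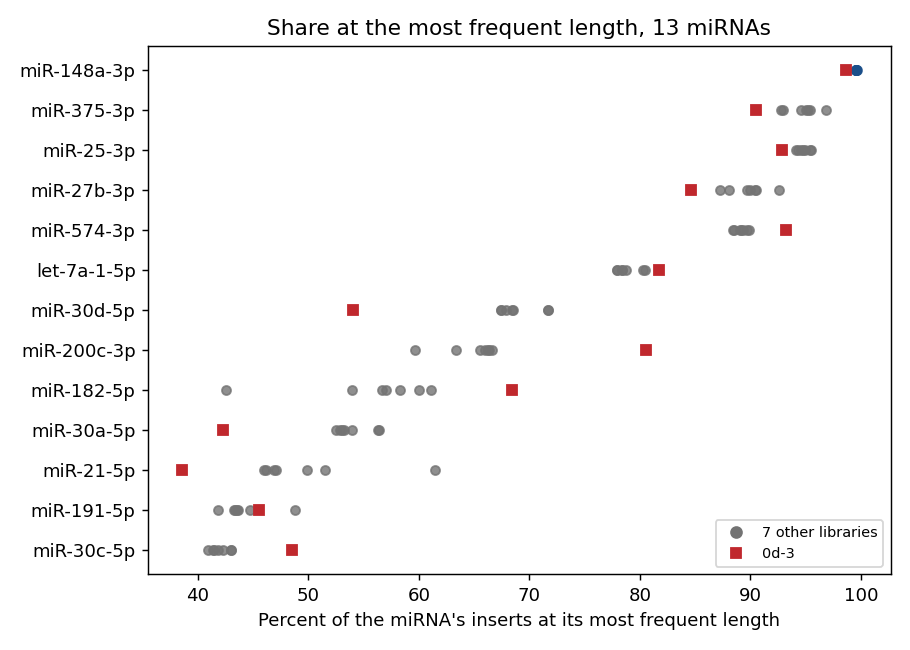
Share of each miRNA's inserts that have its most frequent length (percent), for the 13 miRNAs of the study's list, 1 point per library with 0d-3 as a square. miR-148a-3p lies at 98.7 to 99.6%, to the right of the other 12 in every library.

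Shortened inserts of miR-148a-3p, 18 to 21 nt long, made up 0.285% ± 0.171 of its counts in colostrum and 0.221% ± 0.0110 in mature milk (exact p = 0.943). Nearly all were 21 nt long, at 0.179 to 0.218% in 7 libraries and 0.508% (16 of 3148 counts) in 0d-3. Without 0d-3 the colostrum mean of shortened inserts was 0.201% ± 0.0203, below that of mature milk (exact p = 0.171).

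Some inserts were the full sequence with 1 base more at the 3′ end, 23 nt long for miR-148a-3p and miR-148b-3p and 22 nt long for miR-152-3p. The most frequent such forms of the members, with the added base in capitals, are shown to place the base.
miR-148a-3p with an added T: tcagtgcactacagaactttgtT
miR-148b-3p with an added T: tcagtgcatcacagaactttgtT
miR-152-3p with an added A: tcagtgcatgacagaacttggA
miR-152-3p with an added T: tcagtgcatgacagaacttggT

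An added T was found on 0.150, 0.136, 0.604 and 0.122% of miR-148a-3p counts in 0d-1, 0d-2, 0d-3 and 3d. In 7d, 14d, 21d and 28d it was found on 0.110, 0.142, 0.121 and 0.123%. The value of 0d-3, from 19 counts, had an interval of 0.387 to 0.941%, above all other libraries. The means were 0.253% ± 0.234 in colostrum and 0.124% ± 0.0132 in mature milk (exact p = 0.171), and 0.136% ± 0.0140 in colostrum without 0d-3 (exact p = 0.286). An added A was rarer, at 0.0691% ± 0.0397 in colostrum and 0.0366% ± 0.00950 in mature milk (exact p = 0.143, adjusted p = 0.429), and 0.0498% ± 0.0115 in colostrum without 0d-3. An added C was found on 0.0176% ± 0.00966 and 0.0132% ± 0.00737 (exact p = 0.543), and on 0.0129% ± 0.00248 in colostrum without 0d-3. An added G was found on 0.000723% ± 0.000640 and 0.000697% ± 0.000807 (exact p = 0.914), and on 0.000964% ± 0.000516 in colostrum without 0d-3. These values for G rest on 0 to 3 counts per library, and the 0 counts in 0d-3 allow a share of up to 0.0953% there. The hairpins were not analysed here, so that an added base cannot be told apart from one that the gene encodes.

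The relatives had more variable 3′ ends than miR-148a-3p. Inserts of 22 nt made up 97.0, 95.9, 90.6 and 96.8% of miR-148b-3p counts in 0d-1, 0d-2, 0d-3 and 3d, and 98.3, 96.3, 96.1 and 96.3% in 7d, 14d, 21d and 28d. In every library this was below miR-148a-3p, by 3.55 ± 1.98 percentage points on average (SD, n = 8; exact paired permutation test over sign changes, p = 0.00781, the smallest it allows, adjusted p = 0.0117 over 3 such tests). Without 0d-3 the difference was 2.90 ± 0.795 points (n = 7; exact p = 0.0156, adjusted p = 0.0234). These paired comparisons were chosen after the values were seen.

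An added T was found on 2.21, 1.73, 7.01 and 1.89% of miR-148b-3p counts in 0d-1, 0d-2, 0d-3 and 3d. It was found on 1.81, 1.99 and 2.10% in 14d, 21d and 28d. In 7d it was found on 0 of 589 counts, which allows a share of up to 0.509%. The share was above that of miR-148a-3p in 7 of 8 libraries, with a mean difference of miR-148a-3p minus miR-148b-3p of -2.15 ± 1.85 points (SD, n = 8, all libraries; exact paired permutation test, p = 0.0156, adjusted p = 0.0156). Without 0d-3 it was above in 6 of 7 libraries, with a difference of -1.55 ± 0.750 points (exact p = 0.0312). In 0d-3 both miR-148a-3p and miR-148b-3p carried added T more often than in any other library.

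miR-152-3p was the most variable of the named members. Its 21-nt form made up 72.2, 71.5, 62.6 and 75.0% of its counts in 0d-1, 0d-2, 0d-3 and 3d, and 77.2, 77.4, 81.4 and 62.1% in 7d, 14d, 21d and 28d. Here 28d was as low as 0d-3. Longer inserts made up 17.7% (21d) to 36.7% (0d-3) of its counts. Those of miR-148b-3p were 1.02 to 8.59% and lay below them in 8 of 8 libraries, with a mean difference of miR-148b-3p minus miR-152-3p of -23.9 ± 5.67 points (SD, n = 8; exact paired permutation test, p = 0.00781, adjusted p = 0.0117). Without 0d-3 the difference was -23.3 ± 5.83 points (n = 7; exact p = 0.0156).

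The base added to miR-152-3p was most often A. An added A was found on 13.6, 13.1, 13.9 and 6.48% of its counts in 0d-1, 0d-2, 0d-3 and 3d, and on 10.6, 12.5, 8.64 and 18.6% in 7d, 14d, 21d and 28d. An added T was found on 6.51, 9.38, 11.96 and 12.96%, and then on 4.07, 5.29, 5.91 and 8.44%. A exceeded T in 7 of 8 libraries, the exception being 3d, where 7 and 14 of 108 counts stood behind the values. Counts of A and T were also few in 7d (13 and 5 of 123), 14d (26 and 11 of 208) and 21d (19 and 13 of 220). In 0d-3 they were 299 and 258 of 2158. For miR-148a-3p the order was the other way round, with T above A in 8 of 8 libraries.

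**Figure D4:**
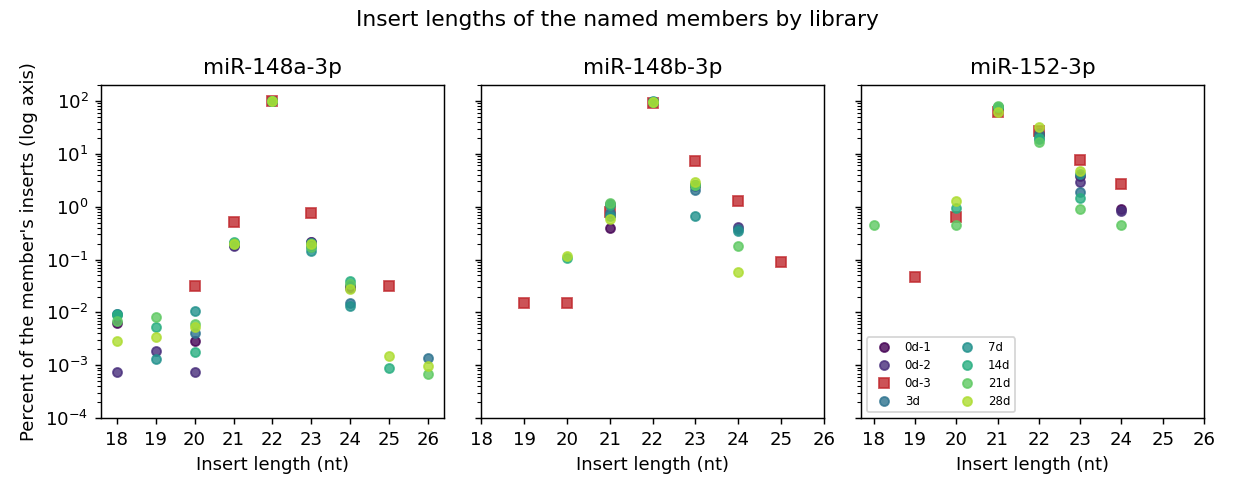
Insert lengths (nt) of miR-148a-3p, miR-148b-3p and miR-152-3p as percent of each member's counts (log axis), 1 point per library with 0d-3 as a square; lengths with no count are left out. miR-148a-3p and miR-148b-3p peak at 22 nt and miR-152-3p at 21 nt, with 16.4 to 31.8% of miR-152-3p at 22 nt.

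The length limits cut off few inserts. With the same nt 1 to 8, 0 to 67 counts per library were 16 or 17 nt long, and 0 to 13 counts were 18 nt long. At the upper limit 0 to 2 counts per library were 26 nt long, and 0 to 2 were 27 to 32 nt long. In 7d and 21d, both at 0 for 27 to 32 nt, reads of 36 nt cannot hold the longest of these with the adaptor.

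The other relatives, neither miR-148b-3p nor miR-152-3p, fell into 231 units of shared first 18 nt, of which 18 were seen in all 8 libraries. They made up 2.65, 2.12, 1.43 and 0.738% of the seed group in 0d-1, 0d-2, 0d-3 and 3d, and 1.37, 0.988, 0.538 and 0.681% in 7d, 14d, 21d and 28d. Most of their counts were a single base away from miR-148a-3p in nt 9 to 18, with 91.3 to 97.6% in 6 libraries, 69.4% in 0d-2 and 25% in 0d-3. There were 43 such counts in 0d-3 against 505 to 4547 in the others. They did not keep a fixed ratio to the seed group, of which they made up 0.519% (21d) to 2.54% (0d-1) outside 0d-3 and 0.357% in 0d-3. The last value is not like the others, since miR-148a-3p held 26.2% of the group in 0d-3, with 3148 counts beside the 43. Other relatives 1 base away from miR-148b-3p or miR-152-3p only had 114 counts in 0d-3, against 4 to 49 in the other libraries.

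The largest 5 of these units were A15C, C9T, A16C, A11C and C12G. A15C is shown because it was the most frequent, with the changed base in capitals.
miR-148a-3p with A15C: tcagtgcactacagCactttgt

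A15C was counted 603 times in 0d-1, 1900 in 0d-2, 50 in 3d, 19 in 7d, 189 in 14d, 19 in 21d and 353 in 28d. It had 0 counts in 0d-3, beside 3148 counts of miR-148a-3p, and a limit of 3 counts would equal 0.0953% of these. Set against the counts of miR-148a-3p, which do not include it, A15C was highest at 0.720% (0d-2). Its lowest such ratio outside 0d-3 was 0.0129% (21d). The unit C9T, with 8 to 496 counts, is 1 base from each of the named members and cannot be assigned to one of them. T10C is also 1 base from miR-148b-3p, and T10G is also 1 base from miR-152-3p in nt 9 to 18. They had 5 and 4 counts in 0d-3 and cannot be assigned to miR-148a-3p alone. C12G was concentrated in 1 library, with 546 of 593 counts in 0d-1. In 0d-2, 1189 counts of relatives differed from every named member at 3 or more of the bases 9 to 18, against 4 to 72 in the other libraries.

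The positions of the single differences varied by library. The most frequent difference was A15C in 0d-1, 0d-2 and 28d, A16C in 3d, 14d and 21d, and C9T in 0d-3 and in 7d. In 0d-1, positions 9 to 12 together with 15 each exceeded 0.37% of miR-148a-3p counts, and no other library had more than 3 positions above 0.28%. Whether these inserts are RNAs of the milk or errors of amplification and sequencing was not tested.

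**Figure D5:**
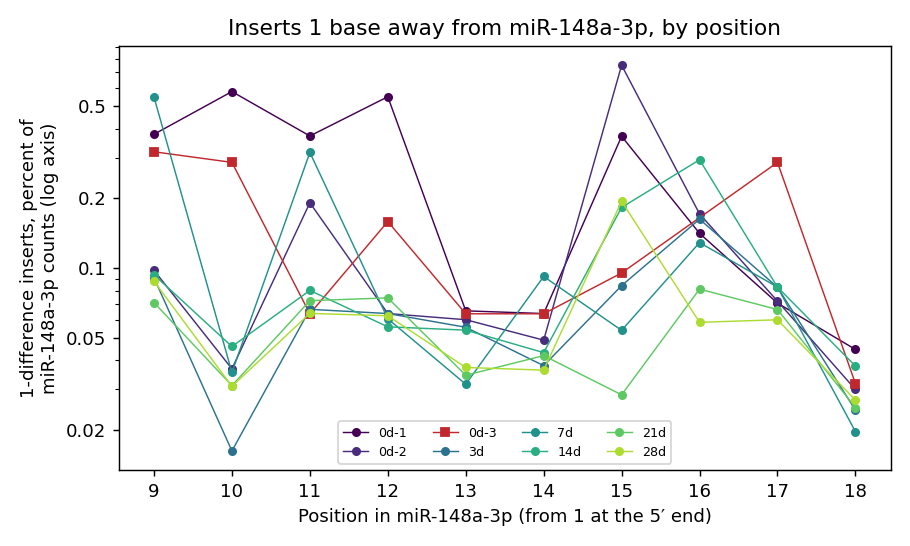
Counts of inserts that differ from miR-148a-3p at 1 base, as percent of miR-148a-3p counts (log axis), by position from 9 to 18, 1 line per library with 0d-3 as squares; 0d-3 has no count at position 16. The highest point is position 15 in 0d-2 at 0.751%, and position 18 is at or below 0.0446% in every library. Some inserts at positions 9 and 10 are also 1 base away from miR-148b-3p or miR-152-3p.

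Markers of the source cells could be followed only as far as the study's list goes. miR-200c-3p, miR-375-3p and miR-182-5p, which are typical of epithelium, were present in all 8 libraries. Shares of all inserts were 0.104 to 0.256% for miR-200c-3p in 7 libraries and 3.22% in 0d-3. For miR-375-3p they were 0.0481 to 0.117% and 0.50%, and for miR-182-5p 0.193 to 0.579% and 1.59%. On this scale all 3 were highest in the library in which miR-148a-3p was lowest, as were 11 of all 12 other miRNAs of the list (all but miR-21-5p). The part of the source cells in that level was not tested. Markers of blood cells, liver and muscle were not analysed here.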

How the data were processed

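Small RNA of porcine milk exosomes was sequenced by the authors on an Illumina Genome Analyzer II. The deposited counts are whole numbers of identical reads per sequence, made by the authors by combining reads, not normalized, and with the 3′ adaptor still attached. The deposited reads numbered 14590531 to 28141425 per library. The aligner and build bear on none of the values here.

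The adaptor was found by its leading 8 nt and removed, and inserts with 18 to 26 nt and no undetermined base were kept. Members were assigned by nt 1 to 8 and by the first 18 nt. Some shares of single libraries are given with 95% Wilson intervals, and some counts of 0 with the limit that 3 counts allow. Samples were grouped by the age of the litter. Group shares were compared by exact permutation tests (Python 3.11.15, numpy 2.4.6), which were tested on simulated data. Units were tested with edgeR 4.0.16 (TMM, filterByExpr, glmQLFTest, Benjamini-Hochberg) in R 4.3.3, with DESeq2 1.42.0 as an alternative.

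The genes named are miR-148a-3p, the relatives given by the family rule, the 5 largest other units, and the 12 other miRNAs of the study's list. The members and lists were chosen with earlier results of these data known. No catalogue or hairpins of pig miRNAs were used. Alternatives covered the adaptor match, low counts, totals, matching, read length, pooling and each library left out.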

Additional observations from a re-analysis of the deposited data

Results flagged for a closer look

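Of 40 groups of 4 libraries (20 measures of the seed group in colostrum and in mature milk), 10 held a library far from the other 3. Far means a large gap to the nearest value relative to the range (Dixon's ratio). Chance would give about 1 in 20 for independent groups. The measures are tied to each other, many being shares of the same counts, so that the flags cannot be set against that rate. Of the 10, 7 were 0d-3. In it miR-148a-3p held 26.2% of the seed group, miR-148b-3p 54.5% and miR-152-3p 17.9%. Its 22-nt share of miR-148a-3p was 98.7%, the shortened share 0.540%, and added T stood on 0.604% of miR-148a-3p and on 7.01% of miR-148b-3p. In 7d miR-148b-3p had 98.3% of its inserts at 22 nt and 0% with an added T. In 3d miR-152-3p had an added A on 6.48% of its counts.

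Inserts in which a leader was followed by miR-148a-3p lie outside the seed group, since their nt 1 to 8 differ. They numbered 4657 in 0d-1, 8372 in 0d-2, 26 in 0d-3, 1334 in 3d, 159 in 7d, 2836 in 14d, 511 in 21d and 6880 in 28d. They made up 0.209 to 3.26% of all miR-148a-3p with or without a leader, lowest in 7d and 21d, the libraries of 36-nt reads.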

How the results depend on the processing

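None of the 10 exact tests passed an adjusted p of 0.05 under any alternative (lowest 0.190), which says little of stability. With 4 against 4 libraries at least 6 tests would have to reach the smallest p together, and with 40-nt reads none could pass, since the smallest p was 0.0667, or 0.1 without 0d-3. No unit of the seed group was called by edgeR or DESeq2 in any of them. Of 179 recomputed values with a test, 154 kept their direction and their side of the threshold and 25 turned sign. Of 9 from pooled counts, which have no test, 2 turned sign. Without colostrum replicate 3 (0d-3) the difference of colostrum minus mature milk became -0.0070 points for miR-148b-3p and -0.0081 for miR-152-3p of the seed group, 0.00092 for the 22-nt share, -0.0206 for shortened inserts and -0.00030 for added C, and the edgeR log2 ratio of miR-148a-3p became 0.037, from -1.35 at the other end when 3d was left out. With 40-nt reads and without 0d-3, added after seeing the data, the log2 ratio of the share of miR-148a-3p was 0.048 and of its edgeR level 0.11, that of miR-152-3p -0.16, and the differences were -0.0482, -0.0335, 0.0268, -0.0050 and -0.0207 points for miR-148b-3p, miR-152-3p, the 22-nt share, added C and shortened inserts. With 40-nt reads alone added C was at -0.00032 and added G at -1.28e-05 points. Pooled counts of a class gave 2.88 points for the relatives, against 18.7 as the mean over libraries. For miR-148b-3p they gave 1.21 (mean 13.4) and for miR-152-3p 0.388 (mean 4.43). In colostrum, 0d-3 held few of the pooled counts of the seed group, but most of those of miR-148b-3p and miR-152-3p. It also had the most counts of relatives of any library, so that pooling does not set it aside in these differences. For the lengths and added bases of miR-148a-3p, 0d-3 weighs little in the pool. There pooling gave -0.0031 for the 22-nt share (mean -0.226), 0.017 for added T (mean 0.129), -0.0018 for added C and -0.0244 for shortened inserts. A minimum of more than 10 counts gave -0.0056 for added C. Added G ranged from -0.00021 to 0.00028, added C up to 0.0067, miR-148b-3p up to 17.9 and miR-152-3p up to 5.92 points when a library was left out. In edgeR, library size alone gave -0.48 for miR-148b-3p and -0.30 for miR-152-3p, and units with more than 10 counts gave -0.20 for miR-148b-3p. The causes were not tested. Leaving out one library moved the log2 ratio of the share of miR-148a-3p between -1.25 and -0.56, against -0.97 with all. Other totals gave -0.056 (all reads), -0.44 (the 13 miRNAs), -0.39 (no leaders) and 0.027 (no leaders and no 0d-3, added after seeing the data). One library left out moved the relatives' difference between 0.928 and 25, the 22-nt difference between -0.306 and 0.00092, added T between 0.0119 and 0.172 and shortened inserts between -0.0206 and 0.0987. Over all units, edgeR called 1 of 46066 with more than 10 counts, 66 of 23223 with 40-nt reads and without 0d-3, and 0 otherwise, against 46 of 15212 by DESeq2. Libraries of colostrum and mature milk were not paired with each other, since those of mature milk were pools of the sows. The pools, 3d among them, came from the same sows as the libraries of day 0, so that the classes are not independent animals. Spread between sows enters the libraries of day 0 alone, while the permutation tests treat all libraries as alike. In 0d-3, which has the most inserts of 18 to 26 nt, miR-148a-3p has 3148 counts, so that its added bases rest on 4 counts of A and 19 of T.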

Other observations

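The 5′ end of miR-148a-3p was also nearly fixed, apart from the inserts with a leader given above. Inserts with another start lie outside the seed group, since their nt 1 to 8 differ. Inserts that began 2 nt late made up 0.191 to 0.270% of those with either start in 7 libraries and 0.0632% (2 counts) in 0d-3. A start 1 nt late was rarer in those 7 libraries, at 0.0357 to 0.0565%, and made up 0.0948% (3 counts) in 0d-3. Inserts with 1 base more at the 5′ end made up 0.0948 (0d-3) to 0.322% (3d). A narrower set is those whose next 18 nt were all of miR-148a-3p. In it the added base was C for 189 of 271 inserts in 0d-1, 279 of 438 in 0d-2 and 3 of 3 in 0d-3. It was C for 63 of 77 in 7d, 152 of 234 in 14d, 141 of 169 in 21d and 189 of 345 in 28d, but for 68 of 236 in 3d.

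A few relatives held most of another miRNA behind the seed of miR-148a-3p. They ended in nt 4 to the end of miR-25-3p behind nt 1 to 8 of miR-148a-3p, whose last bases are also the first of that stretch. The seed stands in capitals.
seed group insert ending as miR-25-3p: tCAGTGCActtgtctcggtctga
Such inserts were counted 26, 18, 1 and 8 times in 0d-1, 0d-2, 0d-3 and 3d, and 0, 7, 8 and 13 times in 7d, 14d, 21d and 28d. miR-25-3p itself made up 3.93% of all inserts in 0d-3 and 0.357% in the median of the other libraries.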
